A study of Homo sapiens with 16 samples.

Results

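The 9 human MCM genes, MCM2 to MCM10, were taken from the array annotation: each probe set (a set of short probes read as 1 value) that carried exactly 1 gene symbol equal to one of these names was kept. This gave 21 probe sets for 9 of the 19775 genes with such a probe set. Messenger RNA was measured on 16 Affymetrix Human Genome U133 Plus 2.0 arrays in 4 established lines of T-cell acute lymphoblastic leukaemia, a cancer of T-cell precursors. The groups were CEM, CUTL1, DND41 and Jurkat cells kept for 15 h with PD-0332991 at 1 uM, and the same lines kept for 15 h with DMSO, the solvent, with 2 arrays in each of the 8 groups. PD-0332991 (palbociclib) inhibits the kinases CDK4 and CDK6. All groups shared the serum-containing RPMI medium and the amplification of 5 ng of RNA, and each line is 1 cultured leukaemia. The labels do not say whether the 2 arrays of a group came from separate cultures.

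MCM2 to MCM7 encode the subunits of a ring-shaped helicase. In G1 the origin recognition complex, CDC6 and CDT1 load the ring onto DNA, and in S phase CDC45 and the GINS proteins join it to form the active helicase that opens the fork. MCM10 binds this assembly when origins fire and has no helicase domain of its own. MCM8 and MCM9 are related helicase proteins that act together in repair by homologous recombination. The transcription of several MCM genes is known to be driven by E2F factors, which the retinoblastoma protein restrains until CDK4 and CDK6 phosphorylate it.

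The promoter windows of the family are shown for MCM2 and MCM6, as 2 of the ring subunits, and for MCM8, MCM9 and MCM10, as the genes outside the ring. The sequences are those of RefSeq on GRCh38.p14, from 250 bases before the start of the gene to 50 after it, and 7 of the 9 members were matched by symbol (MCM4 and MCM5 were not). The letters searched, on both strands, were 4 spellings of an E2F-type element, namely TTTCCCGC with TTTGGCGC as another, then TTTCGCGC and also TTTGCCGC, and capitals mark where any of them was found. Matches that overlap run together in capitals. The windows lie at chr3:127598161-127598460 (MCM2, plus strand), chr2:135876394-135876693 (MCM6, minus strand), chr20:5950402-5950701 (MCM8, plus strand), chr6:118935110-118935409 (MCM9, minus strand) and chr10:13161308-13161607 (MCM10, plus strand).
MCM2: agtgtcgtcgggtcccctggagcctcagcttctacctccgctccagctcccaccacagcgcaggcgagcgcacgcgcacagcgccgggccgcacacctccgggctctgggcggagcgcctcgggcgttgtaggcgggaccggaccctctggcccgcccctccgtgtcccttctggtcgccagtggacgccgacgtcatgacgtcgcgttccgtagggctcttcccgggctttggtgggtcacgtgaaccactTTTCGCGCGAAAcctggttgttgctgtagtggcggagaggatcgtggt
MCM6: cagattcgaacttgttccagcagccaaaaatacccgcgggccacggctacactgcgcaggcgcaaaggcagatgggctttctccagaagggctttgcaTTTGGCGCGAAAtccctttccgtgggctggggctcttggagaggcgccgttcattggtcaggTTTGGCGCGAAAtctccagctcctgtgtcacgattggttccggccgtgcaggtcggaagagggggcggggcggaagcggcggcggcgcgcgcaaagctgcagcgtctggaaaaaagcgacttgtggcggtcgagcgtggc
MCM8: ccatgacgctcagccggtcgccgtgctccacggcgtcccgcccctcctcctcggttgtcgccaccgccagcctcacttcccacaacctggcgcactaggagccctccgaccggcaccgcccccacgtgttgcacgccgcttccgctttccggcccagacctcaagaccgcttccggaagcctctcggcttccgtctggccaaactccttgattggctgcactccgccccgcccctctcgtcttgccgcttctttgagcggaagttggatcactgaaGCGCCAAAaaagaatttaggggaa
MCM9: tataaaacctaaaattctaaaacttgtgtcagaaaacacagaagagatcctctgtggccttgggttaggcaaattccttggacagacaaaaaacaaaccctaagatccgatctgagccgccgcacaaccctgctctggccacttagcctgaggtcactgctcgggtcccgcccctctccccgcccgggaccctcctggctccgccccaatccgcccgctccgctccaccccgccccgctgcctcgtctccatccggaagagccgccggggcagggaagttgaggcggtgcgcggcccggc
MCM10: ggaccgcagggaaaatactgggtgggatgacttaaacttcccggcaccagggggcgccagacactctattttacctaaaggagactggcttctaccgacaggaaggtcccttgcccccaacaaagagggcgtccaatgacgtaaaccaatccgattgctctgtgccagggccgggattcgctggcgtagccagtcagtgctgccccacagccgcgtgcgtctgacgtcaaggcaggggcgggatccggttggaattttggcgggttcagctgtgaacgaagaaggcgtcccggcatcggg

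An E2F-type match was present for 5 of the 7 genes, MCM2, MCM3, MCM6, MCM7 and MCM8, and for 1090 of the 27305 gene symbols with a window (3.99%). MCM6 had 4 matches in 2 overlapping pairs, MCM2 had 2 that overlap on opposite strands just after the start, MCM3 had 2 that lie apart, and MCM8 had 1. MCM7 had 3 windows, with 2 matches in 1 of them. For MCM9 and MCM10 these 4 spellings were not in the window, and other spellings of such an element were not searched. The CCAAT box was found for 6 of the 7 genes, all but MCM2, against 39.7% of all symbols, and the CHR-type letters TTTGAA or TTCGAA for 1 gene, MCM6, against 19.5%. A match of letters is a description of the window and not a binding site.

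Levels are log2 of the deposited intensities, and changes are PD-0332991 minus DMSO on that scale, from limma fitted to 13483 genes, each with the probe set of highest mean. A gene was called at a Benjamini-Hochberg adjusted p under 0.05 over all those genes, and all tests were two-sided. All 9 members were bright enough to be tested, with 1 line or more at or above the median of all deposited values (29.5, or 4.88 in log2). Replicate arrays correlated at r of 0.994 to 0.998 over the genes tested, and precision is limited by having 2 arrays a group. All 10 T-lineage markers looked at, CD3D and LCK among them, lay above that level in every line. Their summed level was 14.8 to 15.4 on PD-0332991 arrays and 14.6 to 15.2 on DMSO arrays. Of the B cell markers measured, 2 of 4 (CD79A and CD79B) did so, with sums of 8.03 to 11.1 against 8.0 to 10.6. The counts were 1 of 4 for myeloid cells (sums of 6.21 to 6.41 against 6.17 to 6.30), 1 of 2 for erythroid cells (6.22 to 6.73 against 6.02 to 6.56), 0 of 3 for epithelium (5.12 to 6.31 against 4.97 to 6.54) and 1 of 3 for fibroblasts (7.77 to 7.98 against 7.83 to 8.21), each pair being PD-0332991 against DMSO arrays. The 18S ribosomal RNA probe sets averaged 12.74 on PD-0332991 and 13.22 on DMSO arrays in CUTL1 and 12.60 against 13.24 in DND41, while in CEM they stood at 13.15 against 12.90 and in Jurkat at 13.43 against 13.39. The 2 CEM DMSO arrays themselves stood apart, at 13.25 and 12.56. The part of 18S in the results was not tested.

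The first question was what inhibition of CDK4 and CDK6 did to the helicase genes over the 4 lines. All 9 members fell in the mean of the lines, where 20.0% of all genes tested were called lower. MCM10 fell most, by 2.93 (SE 0.05), which left 13.1% of its DMSO level, and MCM9 least, by 0.45 (SE 0.09), which left 73.2%. The 6 subunit genes lay between 17.3% of the DMSO level for MCM5 and 37.5% for MCM6, with a median change of -2.09, and MCM8 was left at 29.0%. The median change of all genes tested was 0.04. In 8 of the 9 genes, all but MCM9, both PD-0332991 arrays lay below both DMSO arrays in every line, which held for 10.7% of the genes tested. The arrays measure RNA of whole cultures, so fewer cells that express a gene and less of its RNA per cell cannot be told apart.

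**Figure D1:**
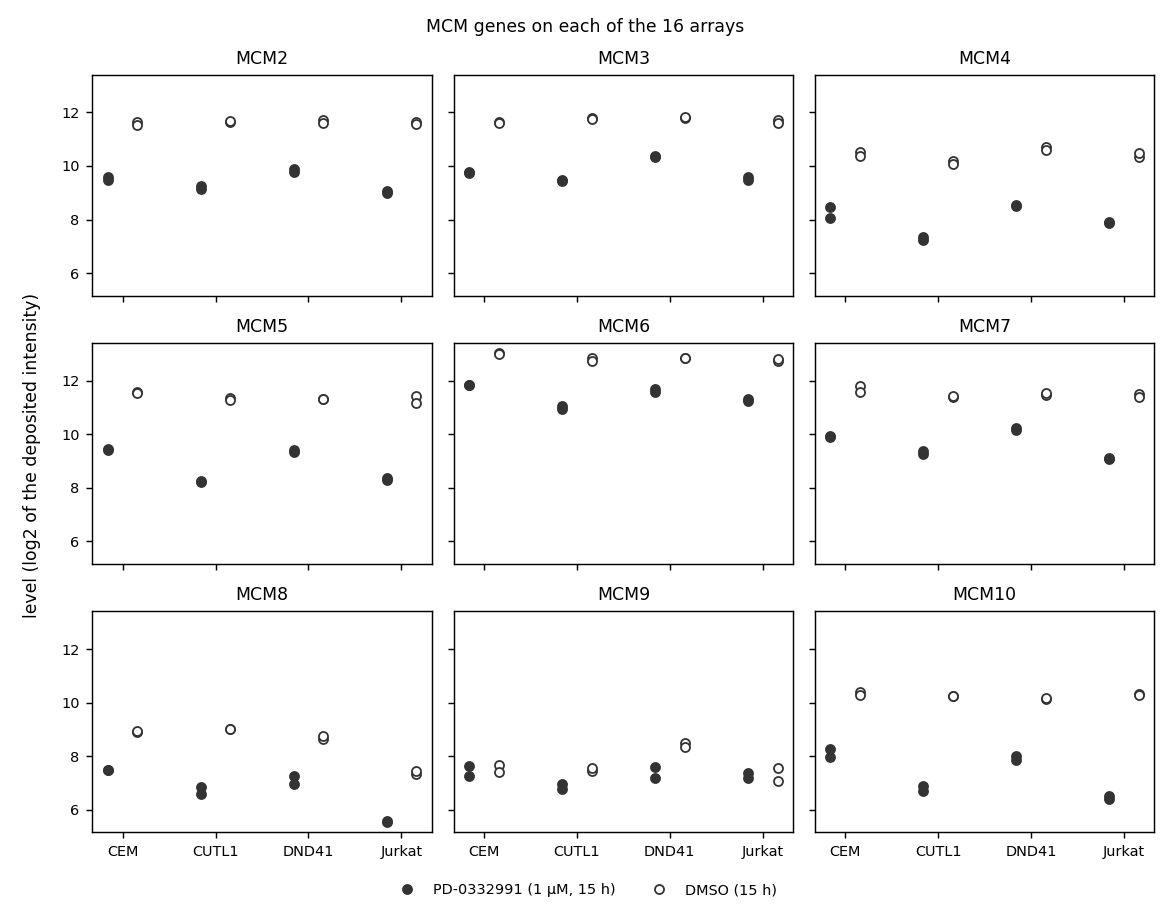
Level of each MCM gene (log2 of the deposited intensity) on the 16 arrays, by line, with filled points for PD-0332991 and open points for DMSO, 2 arrays each. In 8 genes the filled points lie below the open ones in all 4 lines, while in MCM9 they overlap in CEM and Jurkat.

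Among the ring subunits, MCM5 had a mean change of -2.53 (SE 0.04, limma adjusted p = 2.43e-12), the most negative with the probe set of highest mean. Without _x_at and _s_at probe sets MCM4 was lower, at -2.70 against -2.45 for MCM5. The levels of MCM5 with PD-0332991 were 9.42 and 9.47 in CEM, 8.22 and 8.26 in CUTL1, 9.34 and 9.40 in DND41 and 8.29 and 8.35 in Jurkat. Its DMSO levels were 11.58 and 11.54, 11.37 and 11.27, 11.32 and 11.30, and 11.43 and 11.18 in the same lines. The treated arrays of CUTL1 and Jurkat were the lowest, and the DMSO arrays of all lines lay between 11.18 and 11.58. MCM5 interacts with MCM2 at the gate through which the ring opens onto DNA.

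MCM2, whose amino-terminal tail binds histones, had levels with PD-0332991 of 9.58 and 9.49 in CEM, 9.16 and 9.25 in CUTL1, 9.77 and 9.89 in DND41 and 9.08 and 9.01 in Jurkat. With DMSO it stood at 11.65 and 11.53 in CEM, 11.66 and 11.68 in CUTL1, 11.70 and 11.61 in DND41 and 11.65 and 11.58 in Jurkat. The DMSO arrays were thus nearly level across the lines, and the treated arrays were lowest in Jurkat and highest in DND41. Its mean change was -2.23 (SE 0.04, limma adjusted p = 2.90e-12).

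MCM4, a subunit of the catalytic core with MCM6 and MCM7, fell by 2.41 on average (SE 0.06, limma adjusted p = 3.89e-11). It stood at 8.48 and 8.07 in CEM, 7.37 and 7.25 in CUTL1, 8.51 and 8.55 in DND41 and 7.90 and 7.85 in Jurkat with PD-0332991, against 10.53 and 10.36, 10.19 and 10.09, 10.70 and 10.61, and 10.33 and 10.48 with DMSO. The treated CUTL1 arrays were the lowest, and the 2 treated CEM arrays were the replicates farthest apart, by 0.41.

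MCM7, whose introns hold microRNA genes, changed by -1.88 on average (SE 0.04) and MCM3, the partner of MCM5 in the ring, by -1.94 (SE 0.04), both called. MCM7 had 9.94 and 9.89 in CEM, 9.38 and 9.25 in CUTL1, 10.24 and 10.16 in DND41 and 9.13 and 9.07 in Jurkat with PD-0332991, and between 11.40 and 11.82 on the 8 DMSO arrays. MCM3 had 9.78 and 9.72 in CEM, 9.46 and 9.49 in CUTL1, 10.34 and 10.39 in DND41 and 9.61 and 9.47 in Jurkat with PD-0332991, and between 11.61 and 11.83 with DMSO. In both genes the treated DND41 arrays were the highest of the treated ones, and every treated array lay more than 1 unit below every DMSO array.

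MCM6 fell least of the subunit genes, with a mean change of -1.42 (SE 0.04, limma adjusted p = 4.81e-11). With PD-0332991 it stood at 11.85 and 11.82 in CEM, 10.94 and 11.06 in CUTL1, 11.59 and 11.69 in DND41 and 11.31 and 11.23 in Jurkat, against 13.04 and 13.00, 12.85 and 12.75, 12.84 and 12.83, and 12.73 and 12.82 with DMSO. Its intensity on the 8 DMSO arrays ranged from 6787 to 8418. A second, dimmer probe set of MCM6 changed by -1.89 (SE 0.08), against -1.42, so the place of MCM6 among the subunits depended on the probe set.

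MCM10, the origin firing factor, had 8.28 and 7.99 in CEM, 6.71 and 6.87 in CUTL1, 7.87 and 8.01 in DND41 and 6.38 and 6.50 in Jurkat with PD-0332991. Its 8 DMSO arrays lay between 10.13 and 10.38. In Jurkat 6.92% of the DMSO level was left and in CUTL1 9.08%, against 21.8% in CEM and 21.5% in DND41. The limma adjusted p of the mean change was 2.71e-12, and MCM10 ranked 8th among all 13483 genes from the largest mean fall, MCM5 14th, MCM4 17th, MCM2 23rd, MCM3 41st, MCM7 47th, MCM8 56th, MCM6 121st and MCM9 914th.

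By its brighter probe set MCM8 fell in every line, with a mean change of -1.78 (SE 0.05, limma adjusted p = 1.10e-10). It stood at 7.50 and 7.46 in CEM, 6.60 and 6.84 in CUTL1, 6.98 and 7.27 in DND41 and 5.53 and 5.56 in Jurkat with PD-0332991, against 8.89 and 8.95, 9.01 and 9.02, 8.65 and 8.74, and 7.32 and 7.44 with DMSO. The Jurkat arrays were the lowest of each treatment, and the DMSO arrays of Jurkat overlapped the treated range of the other lines. Its change of -1.78 lay within the range of the subunit genes, -2.53 to -1.42, but with all probe sets averaged it was -1.09, outside their range of -2.49 (MCM5) to -1.65 (MCM6).

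MCM9, the partner of MCM8, had 7.64 and 7.24 in CEM, 6.76 and 6.95 in CUTL1, 7.19 and 7.60 in DND41 and 7.20 and 7.37 in Jurkat with PD-0332991, against 7.68 and 7.40, 7.46 and 7.55, 8.49 and 8.35, and 7.07 and 7.54 with DMSO. The treatments overlapped in CEM and Jurkat, were apart by a small margin in CUTL1 and by a larger one in DND41. The change was -1.03 in DND41 (SE 0.19, limma adjusted p = 0.00208) and -0.65 in CUTL1 (limma adjusted p = 0.0219), whereas CEM at -0.10 (95% interval -0.51 to 0.30) and Jurkat at -0.02 (-0.43 to 0.38) were not called. The CUTL1 call was lost without any 1 of the 4 CUTL1 arrays (adjusted p = 0.0505 to 0.133), and the mean call (adjusted p = 0.00175) was lost with each line's difference taken as 1 replicate (adjusted p = 0.129). CUTL1 and DND41 are also the lines whose 18S level was lower with PD-0332991, and the part of this in the MCM9 result was not tested.

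By line, 8 members fell in CEM (background 11.6% of genes called lower), 9 in CUTL1 (12.7%), 9 in DND41 (17.1%) and 8 in Jurkat (11.4%), and none rose. The median change of MCM2 to MCM7 was -1.97 in CEM, -2.39 in CUTL1, -1.64 in DND41 and -2.44 in Jurkat. For MCM8, MCM9 and MCM10 side by side the changes were -1.44, -0.10 and -2.20 in CEM, -2.30, -0.65 and -3.46 in CUTL1, -1.57, -1.03 and -2.22 in DND41 and -1.83, -0.02 and -3.85 in Jurkat. With the probe set of highest mean, the change of MCM10 was more negative than that of every subunit gene in CUTL1, DND41 and Jurkat. That of MCM9 was less negative than every subunit gene in each line. In DND41 both orders were within the error: MCM10 at -2.22 (SE 0.10) against MCM4 at -2.12 (SE 0.12), and MCM9 at -1.03 (SE 0.19) against MCM6 at -1.19 (SE 0.07). Another MCM4 probe set changed by -2.68 in DND41 and -3.52 in CUTL1, more negative than any MCM10 probe set there. In CEM the MCM10 change of -2.20 was within the error of the MCM4 change of -2.17 (SE 0.10 and 0.12), and MCM10 was not the lowest there with all probe sets averaged, without _x_at and _s_at probe sets, or without the second DMSO or either treated CEM array. The change of MCM8 lay inside the subunit range in each line with the brighter probe set, but outside it in each line with all probe sets averaged, at -1.02 in CEM, -1.43 in CUTL1, -0.92 in DND41 and -0.97 in Jurkat. The mean DMSO levels were 10.41 to 12.86 for the subunit genes, 10.26 for MCM10, 8.50 for MCM8 and 7.69 for MCM9, and since probe sets of different genes bind with different strength these levels give no order of abundance.

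**Figure D2:**
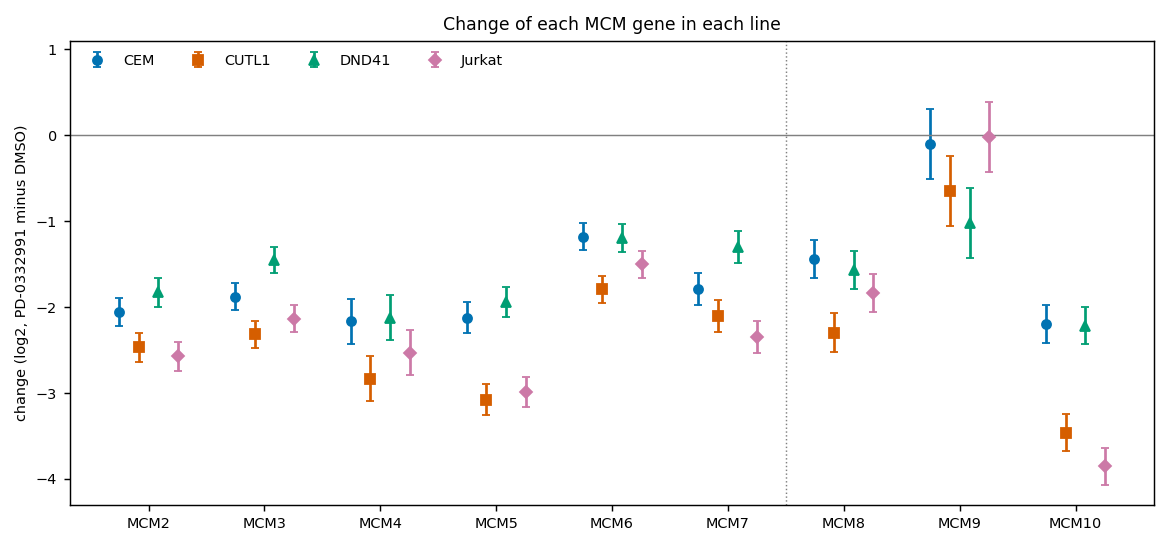
Change of each MCM gene (log2, PD-0332991 minus DMSO) in each line, with the 95% interval from limma, 2 arrays per group; the dotted line separates MCM2 to MCM7 from MCM8, MCM9 and MCM10. MCM10 reaches -3.85 in Jurkat, and the intervals of MCM9 in CEM and Jurkat include 0.

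Whether the fall differed between lines was put to an F test with 3 degrees of freedom. It was called for 8 of 9 members, all but MCM9 (adjusted p = 0.057), against 12.6% of all genes. MCM10 differed most, with a gap of 1.66 between its changes in CEM and Jurkat (adjusted p of the F test = 0.000135), and MCM5 next, with 1.14 between DND41 and CUTL1 (0.000213). The call for MCM4 (adjusted p = 0.0412) was lost when 1 array was left out for 12 of the 16 arrays. The others were the treated CEM and the DMSO Jurkat arrays. Other settings also lost the MCM4 call, among them that with all probe sets averaged (F test adjusted p = 0.158). Without _x_at and _s_at probe sets the value was 0.140, and with arrays centred on their medians 0.0513. The call was kept in 11 of 27 alternatives. In the fit over probe sets, this F test called no MCM4 probe set (lowest adjusted p = 0.0561). It did not call the dimmer MCM8 probe set either (0.285). Of 27 alternatives, 7 called MCM9. These included the fits without the second treated array of CEM or DND41 or the second DMSO array of Jurkat. With all arrays kept, the lowest adjusted p of this F test for MCM9 was 0.0247.

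The next counts are of the 8 called genes, pair by pair. The shares in brackets are of all genes in either direction, whether or not the F test called them. They are therefore not a like background for genes chosen by that test. MCM9 was left out, though its limma adjusted p was 0.04996 for CEM and DND41 and 0.0381 for DND41 and Jurkat. CUTL1 and DND41 differed in all 8 (7.15%), with a larger fall in CUTL1 by 0.60 to 1.25. CEM and CUTL1 differed in 6 (5.14%), with a larger fall in CUTL1 by 0.44 to 1.27, the exceptions being MCM2 and MCM7. DND41 and Jurkat differed in 5, MCM2, MCM3, MCM5, MCM7 and MCM10 (9.52%), with a larger fall in Jurkat by 0.69 to 1.64. CEM and Jurkat differed in 4, MCM2, MCM5, MCM7 and MCM10 (1.97%), with a larger fall in Jurkat by 0.51 to 1.66. CEM and DND41 differed in MCM3 and MCM7 (9.31%), with a larger fall in CEM by 0.43 and 0.49. CUTL1 and Jurkat differed in 0 of 8 (2.55%), where the smallest adjusted p was that of MCM8 at 0.131, for a fall larger in CUTL1 by 0.46 (SE 0.14).

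In DMSO, the F test over the 4 lines called 6 members, MCM4 to MCM9, where 71.2% of all genes were called. MCM8 stood out by size with its brighter probe set: Jurkat lay below CEM by 1.54, below CUTL1 by 1.64 and below DND41 by 1.31 (SE 0.10 each), with adjusted p-values of at most 6.07e-07. With the dimmer MCM8 probe set these gaps were 0.32, 0.30 and 0.02, and its F test was not called (adjusted p = 0.133). MCM9 was higher in DND41 than in CEM by 0.88, in CUTL1 by 0.91 and in Jurkat by 1.11 (SE 0.19 each, adjusted p = 0.00236, 0.00172 and 0.000394). MCM5, MCM6 and MCM7 were higher in CEM than in other lines by at most 0.29, and these calls depended on single arrays. That of MCM5 was lost without any 1 of the DMSO arrays of CEM or DND41 (adjusted p up to 0.208), and that of MCM6 without any of these or the first Jurkat DMSO array (up to 0.199). That of MCM7 was lost without the first CEM, either CUTL1, the first DND41 or the second Jurkat DMSO array, or either treated Jurkat array (up to 0.336). MCM4 was lower in CUTL1 than in DND41 by 0.51 (SE 0.12, adjusted p = 0.00411), and its F test was not called without the second CUTL1 or the first DND41 DMSO array (adjusted p = 0.0814 and 0.0651). MCM2, MCM3 and MCM10 were not called, with adjusted p-values of 0.753, 0.0948 and 0.408. Pair by pair the called members, of 9, numbered 3 for CEM and CUTL1, 2 for CEM and DND41, 4 for CEM and Jurkat, 3 for CUTL1 and DND41, 1 for CUTL1 and Jurkat and 2 for DND41 and Jurkat. The shares of all genes were 43.4%, 45.7%, 48.1%, 44.1%, 49.5% and 46.9% in that order. MCM2, MCM3 and MCM10 had no pair with an adjusted p under 0.05, so the counts are the same with or without the F test.

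Among the probe sets, 20 of 21 were bright enough for a fit over 24893 probe sets, and 18 of them were called lower on average, against 19.2% of all. The 3 probe sets of MCM10 changed by -2.93 to -2.77, the 2 of MCM5 by -2.53 and -2.45 and the 2 of MCM7 by -1.88 and -2.05, so the probe sets of each of these genes were close in the mean. Of the 5 for MCM4, 4 fell, with changes of -2.98 to -2.41, and the other, with a mean level of 5.34, stood at -0.03 (limma adjusted p = 0.834). The dimmer MCM8 probe set, at a mean level of 5.29, changed by -0.39 (SE 0.08, limma adjusted p = 0.00154), against -1.78 for the brighter one. By line the dimmer one was called in CEM (-0.60, limma adjusted p = 0.0155) and CUTL1 (-0.56, 0.0207). It was not called in DND41 (-0.27, 0.215) or Jurkat (-0.11, 0.686). Both low probe sets lay within 0.5 of the level of 4.88 under which values were set aside as dim.

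The MCM9 probe sets disagreed about the lines. The one used above was highest in DND41 with DMSO, at a mean of 8.42, and the second was lowest there, at 6.26, and highest in CUTL1, at 7.47. The second probe set changed by -0.40 in CUTL1 (limma adjusted p = 0.0235) and by -0.16 in DND41 (0.334), and on average by -0.11 (0.132). The third, at a mean level of 3.12, was too dim to test. MCM6 differed between probe sets as well: in DND41 its bright probe set changed by -1.19 and the dimmer one by -2.35, so the smaller fall of this gene in DND41 than in CUTL1 was seen with the bright one alone.

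**Figure D3:**
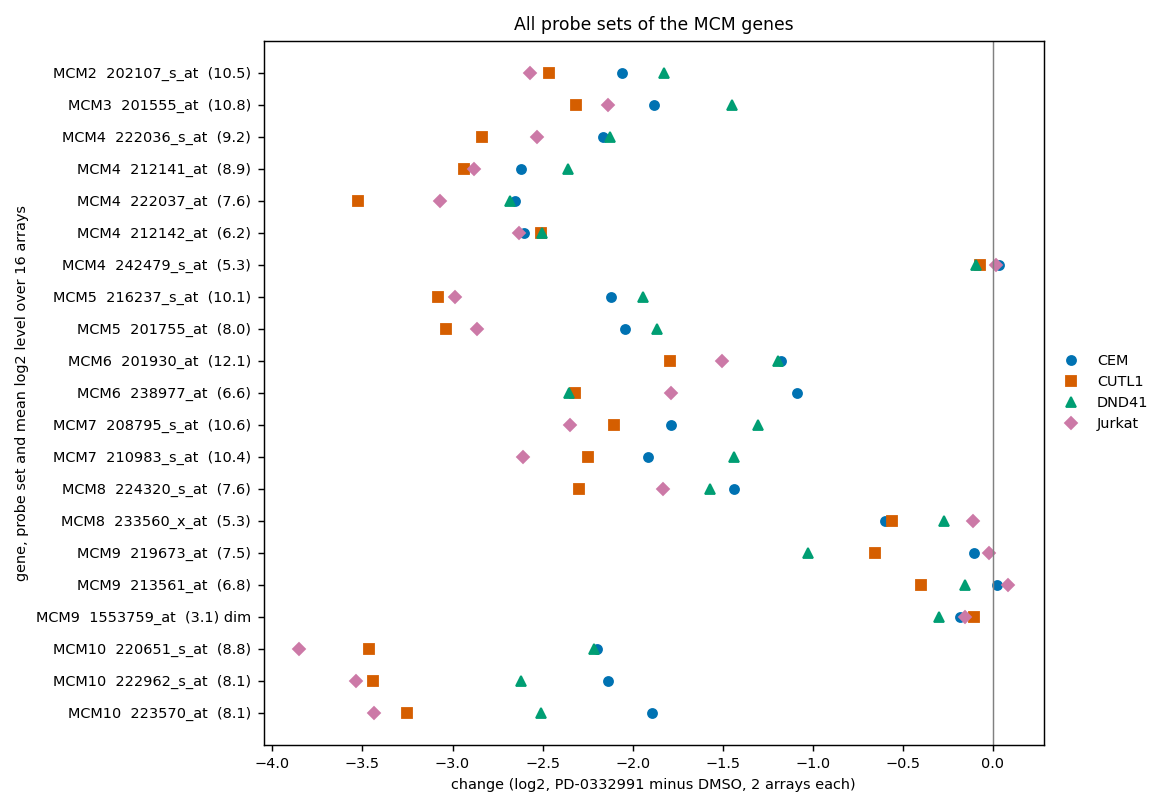
Change (log2, PD-0332991 minus DMSO, 2 arrays per group) for each of the 21 probe sets in each line; the mean log2 level over 16 arrays stands in brackets beside each name. The probe sets of MCM5 and of MCM7 lie close together within a line, while 1 of MCM4 lies near 0 and those of MCM9 differ most in DND41, at -1.03 and -0.16.

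The genes that load the ring fell with it in part. Of 9 genes for origin recognition and loading 6 fell (median -1.18), where 20.0% of all genes tested were called lower and their median change was 0.04. The smallest p-values were those of the loaders CDC6 (-3.20, SE 0.05) and CDT1 (-2.73, SE 0.07) and of ORC6 (-1.60), and the CDT1 inhibitor gene GMNN changed by -1.18. Not called were ORC2 (-0.03), ORC4 (0.00, adjusted p = 0.942) and ORC5 (-0.01), subunits of the origin recognition complex, while ORC1, its regulated subunit, changed by -2.57. ORC1 and GMNN were chosen for mention with their values known. The 5 partners of the ring in the active helicase all fell (median -1.67), with GINS2 at -3.47 (SE 0.04), CDC45 at -2.60 (SE 0.04) and GINS3 at -1.54 (SE 0.03). The GINS2 value rested on a probe set with the suffix _s_at, and without such probe sets another stood for the gene, at -0.03.

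Against the same 20.0% of all genes, all 9 genes of helicase activation fell (median -1.13), among them DONSON (-2.22), CDC7, the kinase that phosphorylates the MCM ring (-1.43), and TOPBP1, a scaffold of origin firing (-1.13). The 7 tested genes that act at the fork beside the helicase fell too (median -1.49), with the checkpoint mediator CLSPN at -2.58, the polymerase epsilon subunit gene POLE2 at -2.25 and the polymerase alpha gene POLA1 at -1.49. Of 7 tested genes for proteins that bind or unload MCM complexes 5 fell (median -0.88), with the histone chaperone ASF1B at -2.02, MCMBP, which binds the MCM proteins outside chromatin, at -1.43, and LRR1, a ubiquitin ligase subunit for removing the helicase, at -1.01. ASF1A (-0.01, adjusted p = 0.754), another histone chaperone, and MCM3AP (0.09, 0.188), whose product binds MCM3, were not called, and MCMDC2 was dim. Of 4 tested partners of MCM8 and MCM9, 2 were called lower: MRE11 fell by 0.72 (SE 0.04) and HROB, which loads them, by 0.42 (SE 0.08, limma adjusted p = 0.00103), while RAD50 (0.00, adjusted p = 0.991) and NBN (0.02) were not called.

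**Figure D4:**
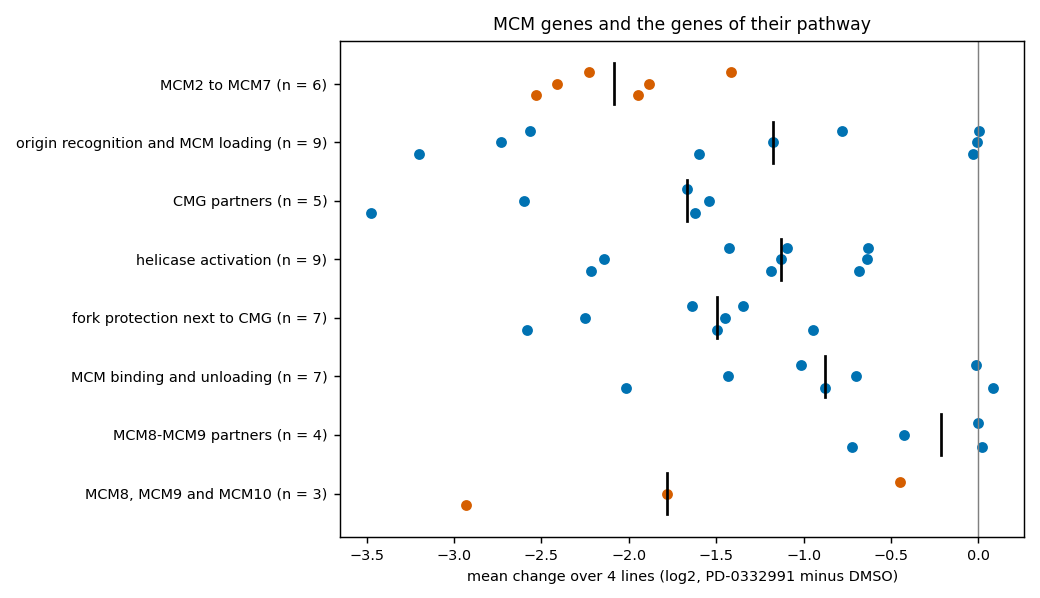
Mean change over the 4 lines (log2, PD-0332991 minus DMSO) of the MCM genes (orange) and of the tested genes of 6 pathway lists (blue), 1 point per gene, with a black line at each median; points are offset vertically for legibility. The median of MCM2 to MCM7 is -2.09, and that of the MCM8 and MCM9 partners is -0.21.

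Over the 16 arrays, the levels of MCM2 to MCM7 correlated with each other at Pearson r of 0.960 to 0.993 and with MCM10 at 0.968 to 0.994. With MCM8 they correlated at 0.798 to 0.871 and with MCM9 at 0.556 to 0.650. The 16 points share the differences between treatments and between lines, so these values describe the arrays and carry no test. Each gene is given by its probe set of highest mean. For MCM8 and MCM9 the differences between lines in DMSO were not the same in the other probe sets, as given above. The genes most like the mean of MCM2 to MCM7 were the chromatin assembly gene CHAF1A (r = 0.995), the nuclease gene DCLRE1B (0.995), the phosphatase gene CDC25A (0.994), CDC45 (0.994) and DTL (0.993). For MCM10 they were ZNF367 (0.995), FEN1 (0.994), DSCC1 (0.994), CDCA5 (0.993) and CDC6 (0.992). For MCM8 they were DERA (0.992), NFATC2IP (0.982), RHNO1 (0.978), XPO1 (0.978) and NAB1 (0.975), and for MCM9 GRAMD1C (0.918), OBI1 (0.906), TFRC (0.905), ZNF180 (0.903) and GABPB1 (0.888), where TFRC itself was not called in the mean of the lines (-0.06, adjusted p = 0.264).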

How the data were processed

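The values the authors deposited are linear intensities, 1 for each probe set, between 4.42 and 26097, made with RMA per the submitters' processing notes; the version is not given in the sources used here. Log2 was taken with no pseudocount and no further scaling. Of 54675 probe sets 41097 had 1 gene symbol, 1801 several and 11777 none in the platform annotation, and only the first kind was used. Each gene was represented by its probe set of highest mean, and 13483 genes were tested, with 6292 set aside as dim. Linear models of 8 group means were fitted with limma 3.58.1 in R 4.3.3 (lmFit, eBayes; 8 residual and 3.32 prior degrees of freedom) and adjusted by Benjamini-Hochberg over all genes tested, and a second fit took all 24893 probe sets bright enough. The labels name no separate cultures, so p-values reflect array-to-array spread alone, possibly technical. The fits were tested on simulated data. Figures were drawn with matplotlib 3.10.9 (Python 3.11.15, pandas 2.3.3).

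The members, the pathway and marker lists, and the tests were chosen with earlier results of these data known. Named genes of a pathway list were the 3 with the smallest p and each member not called; likeness named 5 genes. AND1 on the fork list is another name of WDHD1 and was counted once, under helicase activation. Arrays with the same number in a line deviated together at r of 0.08 in CEM, 0.19 in CUTL1, -0.11 in DND41 and 0.10 in Jurkat. The labels do not say whether the numbers pair the arrays, and these low values do not settle it.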

Additional observations from a re-analysis of the deposited data

Results flagged for a closer look

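The fall with PD-0332991 differed between lines for 8 members by the F test of limma. Its adjusted p was 0.00349 for MCM2, 0.00143 for MCM3, 0.0412 for MCM4, 0.000213 for MCM5, 0.00672 for MCM6, 0.00143 for MCM7, 0.0102 for MCM8 and 0.000135 for MCM10. The MCM4 call was kept in 11 of 27 alternatives. Those that lost it included all probe sets averaged, no _x_at and _s_at probe sets and arrays centred on their medians. The call was also lost without certain single arrays, as given above. The gap between the lines with the largest and the smallest fall was 0.75 for MCM2, 0.87 for MCM3, 0.71 for MCM4, 1.14 for MCM5, 0.61 for MCM6, 1.05 for MCM7, 0.86 for MCM8 and 1.66 for MCM10 on the log2 scale. All these values are those of the probe set of highest mean. By it the largest fall was in CUTL1 for MCM3, MCM4, MCM5, MCM6 and MCM8 and in Jurkat for MCM2, MCM7 and MCM10. The dimmer MCM6 probe set fell most in DND41 (-2.35, against -2.32 in CUTL1). The dimmer MCM8 probe set fell most in CEM (-0.60, against -0.56 in CUTL1), and the F test did not call it (adjusted p = 0.285). For MCM4 the line with the largest fall also differed between probe sets. Groups of 2 arrays are too small to look for a single array that stands apart.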

How the results depend on the processing

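All 9 members were lower on average, and 8, 9, 9 and 8 in CEM, CUTL1, DND41 and Jurkat; the mean call of 8 of them, all but MCM9, held wherever the gene was tested in the 28 alternatives. Without _x_at and _s_at probe sets MCM2, MCM7 and MCM8 had no probe set left, and the counts were 6 on average, 5 in CEM, 5 in Jurkat, 4 for the difference between lines and 3 for the DMSO levels. The DMSO count was also 3 after centring each array on its median and 3 with no filter, and 2 to 6 without 1 array. MCM8 kept its DMSO call in every alternative that tested it, and MCM9 lost it with all probe sets averaged (adjusted p = 0.0627). In the fit over probe sets the dimmer MCM8 probe set had no such call (F test adjusted p = 0.133). With the replicate block the members called were 9 on average and 9 for the difference between lines, where MCM9 was gained (0.0424). ASF1A turned to 0.13 with all probe sets averaged and 0.28 without _x_at and _s_at, and NBN to -0.19 with all averaged. RAD50 was called higher with all averaged (0.11, limma adjusted p = 0.0126) and without _x_at and _s_at (0.17, 0.0124). With all averaged ORC5 was called lower (-0.11, limma adjusted p = 0.0343). Over all genes, the count for the difference between lines ran from 791 to 2604 (1700 as reported), that of mean falls reached 1285 with each line as 1 replicate (2694), and falls in single lines ran from 1005 to 1692 in CEM (1568), 1379 to 2880 in DND41 (2305) and 970 to 1654 in Jurkat (1535).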
